A study of Mus musculus with 45 samples.

Results

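The proteasome, the protease complex that degrades ubiquitin-tagged proteins, was followed through the mRNAs of 47 genes that encode its subunits and assembly factors. The members were all genes whose symbol begins with Psma, Psmb, Psmc, Psmd, Psme, Psmf or Psmg and a digit, without Psmb8, Psmb9 and pseudogenes, that had at least 10 counts in at least 3 of the 45 libraries. Of 52 matching names among 28454 listed genes, 4 were left out by name and 1, the thymus form Psmb11 (0 to 3 counts in any library), by the count rule, which 14232 of all listed genes passed. The member with the lowest counts was Psme2b, with 13 to 75 counts per library. The 47 genes were grouped by role into the 7 alpha and 7 beta subunits of the core particle, the immune beta form Psmb10, 6 ATPases and 11 non-ATPase subunits of the regulatory particle, 3 chaperones of the regulatory particle base, 4 chaperones of the core particle, and 6 activators and inhibitors. A further 2 genes, Psmc3ip and Psme3ip1, match the pattern by name but encode no subunit.

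The libraries came from mouse mammary tumour cell lines seeded at 250000 cells per well, which after 24 h received control medium or medium free of cysteine and cystine for 6 h, with 3 cultures per line and medium. The lines MYAZ16.1e, MYAZ12.3i and MYAZ6.6g (MYAZ) came from mammary tumours of mice that carry a MYC transgene under the MMTV promoter, and so did the single line Myc310, which gave visible lung metastases after injection into the mammary fat pad. LM1, LM2 and LM3 (LM) were recovered from lungs of mice injected with Myc310 cells, and LM1-LM, labelled in 1 subtype with LM2-LM and LM3-LM (LM-LM), from metastases of mice with LM1 tumours. All 10 lines were sequenced in control medium, and MYAZ16.1e and 3 lines of the Myc310 descent (Myc310, LM1 and LM1-LM) also in deprived medium. A last group, MYAZ12.3i NDI1 in control medium, is a MYAZ12.3i line labelled with NDI1, the name of a yeast mitochondrial NADH dehydrogenase.

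The core particle is a barrel of alpha and beta rings whose subunits Psmb5, Psmb6 and Psmb7 carry the peptide-cleaving sites, and the regulatory particle recognises, unfolds and feeds in ubiquitinated proteins. Subunits are made in fixed proportions, dedicated chaperones guide their assembly, and the transcription factor NRF1 (Nfe2l1) is the textbook activator of their genes when proteasome activity is short. Loss of cysteine limits glutathione and protein synthesis and is known to set off an amino acid stress response, so that the comparison asks how the mRNAs of the degradation machinery stood after 6 h of it.

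Counts on genes ranged from 19517859 to 29019988 per library, and levels are given as CPM, the usual library-size-scaled counts, after TMM scaling. The series text calls the 3 cultures of a line technical replicates, so p-values within a line measure only the spread between cultures of that line. The epithelial keratins Krt8 and Krt18 were abundant, at 794 and 270.0 CPM in MYAZ16.1e control cultures, and the 7 epithelial markers summed to 333 to 2379.8 CPM over control libraries, whereas the epithelial adhesion genes Epcam and Cdh1 stayed under 1 CPM in every group. Summed leukocyte markers (4 of 6 listed genes in the table) lay between 2.74 and 19.6 CPM in control and between 5.96 and 16.8 CPM in deprived libraries. The 5 endothelial genes summed to 0.0938 to 7.08 and 0.0940 to 5.13 CPM, and 5 alveolar epithelial genes to 0.164 to 2.80 and 0.0504 to 0.756 CPM, with Sftpb at 0 in control and Sftpc and Scgb1a1 at 0 in deprived libraries. The 8 fibroblast genes (Lum at 0 in deprived libraries) varied more, from 1.73 to 217 CPM in control and from 2.68 to 29.2 CPM in deprived libraries, and their part in the results was not tested. In such bulk samples, fewer cells of a kind and less RNA per cell cannot be told apart.

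In control medium the subunits of the complex had higher levels per length than its chaperones. As CPM per kilobase of exons, averaged over the 10 lines, the alpha ring genes ran from 61.0 (Psma2) to 234 (Psma7), and the beta ring genes from 52.3 (Psmb1) to 192 (Psmb3). The ATPases lay between 71.9 (Psmc6) and 146 (Psmc1), and the non-ATPase subunits between 58.7 (Psmd11) and 213 (Psmd2). All 10 genes with the highest levels were subunits of the core or regulatory particle. By contrast, the core chaperones reached 24.2 to 41.4 and the base chaperones 14.5 to 29.4. Psmb10, which replaces the trypsin-like site in immune cells, stood at 23.5, and Psmf1, the inhibitor PI31, at 9.93 CPM per kilobase. Psme2b was lowest at 1.58, and as a near-copy of the activator gene Psme2 its reads are uncertain. The summed level of all 47 genes in control medium ran from 6695 ± 74.1 CPM (SD, n = 3) in Myc310 to 7991 ± 63.6 CPM in MYAZ16.1e.

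The members lie on 16 chromosomes, of which chromosome 11 holds 10, so they do not form a cluster. In GENCODE M21 (GRCm38), 10 members overlap another gene on the same strand and 18 a gene on the opposite strand, and reads of such pairs may be shared, for the latter unless the counting used the strand of the directional libraries. Psmb10, for example, lies at chr8:105935735-105938444 on the minus strand and Psmc6 at chr14:45329788-45349705 on the plus strand.

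Promoters were searched because the CNC factors NRF1 and NRF2 bind the antioxidant response element, whose core is TGACNNNGC. RefSeq windows on GRCm38.p6, from 250 bases before to 50 after the start, were found for 40 of the 47 genes (44 promoters), and both strands were read. A match of this core can overlap one of TGACTCA. The core was present in 6 of 44 windows (13.6%) and in 12.4% of all 32851 windows. TGACTCA, the AP-1 and CNC-MAF core, was present in 1 window (2.27% against 5.20% of all), and TGATGNAA, the C/EBP-ATF core, in 1 (2.27% against 3.97%). The first share was near that of all promoters and the others rest on 1 window each, and a match is a run of letters, not a bound site. Carriers of the first core moved in both directions under deprivation: beside Psmc6, Psmb5 and Psmb6 they were Psmd12 and Psme4, which fell in all 4 lines, and Psmd9, which fell in MYAZ16.1e but rose in LM1 and LM1-LM. Upstream stretches with the core in capitals are shown for Psmc6, whose increase was the largest of all members in each line and whose match is on the opposite strand, and for the catalytic subunits Psmb5 and Psmb6, whose changes were small.
Psmc6, chr14:45329574-45329630, plus strand: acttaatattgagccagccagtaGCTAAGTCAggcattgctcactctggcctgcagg
Psmb5, chr14:54618009-54618067, minus strand: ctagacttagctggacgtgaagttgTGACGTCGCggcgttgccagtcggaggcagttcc
Psmb6, chr11:70525323-70525356, plus strand: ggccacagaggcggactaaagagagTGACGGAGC

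After 6 h without cysteine and cystine, the members moved in both directions by less than 2-fold under TMM scaling, with more decreases than increases in each of the 4 lines. Log2 fold changes are given ± the standard error (SE) of the fit, from 3 cultures against 3. In MYAZ16.1e, 29 of 47 members fell and 2 rose (edgeR quasi-likelihood, adjusted p by Benjamini-Hochberg over 13400 genes, threshold 0.05), where 27.1% of all genes fell and 26.6% rose. In Myc310, 27 fell and 9 rose, against 33.9% and 32.8% of all genes. In LM1 the corresponding numbers were 21 and 17, against 35.3% and 35.8%, and in LM1-LM 21 and 16, against 35.9% and 36.5%. Upper-quartile scaling turned the split of LM1 and of LM1-LM into 27 lower and 12 higher in each. Over all genes, 50.3% (LM1) and 50.5% (LM1-LM) of the calls were higher under TMM scaling and 44.4% and 44.3% under upper-quartile scaling, beside 44.7% and 43.2% of the member calls under TMM and 30.8% in each line under upper-quartile scaling. The median log2 fold change of the members was -0.14 (MYAZ16.1e), -0.18 (Myc310), -0.054 (LM1) and -0.073 (LM1-LM), beside medians over all genes of 0, -0.013, -0.0046 and 0. Under upper-quartile scaling the member medians of LM1 and LM1-LM were -0.13 and -0.16, with all-gene medians of -0.080 and -0.077, and without replicate 3 that of LM1-LM was -0.044. The summed level of the 47 genes was 7991 ± 63.6 CPM in control and 7231 ± 88.6 CPM in deprived MYAZ16.1e cultures. In Myc310 the sum was 6695 ± 74.1 against 6006 ± 11.0 CPM (SD, n = 3). LM1 gave 7058 ± 28.6 against 6569.7 ± 83.1 CPM, and LM1-LM 7304 ± 70.1 against 6815 ± 28.3 CPM. The control and deprived ranges of this sum did not overlap in any of these lines.

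A set of 18 members fell in all 4 lines, namely 6 alpha subunits (Psma1, Psma3, Psma4, Psma5, Psma6 and Psma7), Psmb10, Psmc3, the non-ATPase subunits Psmd1, Psmd2, Psmd3, Psmd7, Psmd12 and Psmd13, and Psmd5, Psmg1, Psmg2 and Psme4, beside 19% of the 13400 genes tested. The Psmd12 call was lost in LM1 without replicate 1 and in LM1-LM without replicate 2. Only 2 members, Psmc6 and Psmd8, rose in all 4, beside 19.3% of all genes, and Psme2b passed the test in none. Psmb1 fell in MYAZ16.1e and rose in LM1 and LM1-LM, and no such call was lost under the 11 other settings. Psmb4, Psmc1 and Psmd9 were called in the same directions in these 3 lines, and Psmc1 also rose in Myc310. Those of Psmb4 in LM1 and LM1-LM were lost under 2 and 8 of 11 other settings (upper-quartile scaling in both, RLE scaling and DESeq2 in LM1-LM), and its control and deprived cultures overlapped in both lines. The fall in MYAZ16.1e was lost under 5 of 11 for Psmc1, among them without any 1 of the 3 replicates, and under 3 of 11 for Psmd9. The rise of Psmd9 in LM1 was lost without replicate 3. Each line has its own control cultures, so these lists share no libraries.

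**Figure D1:**
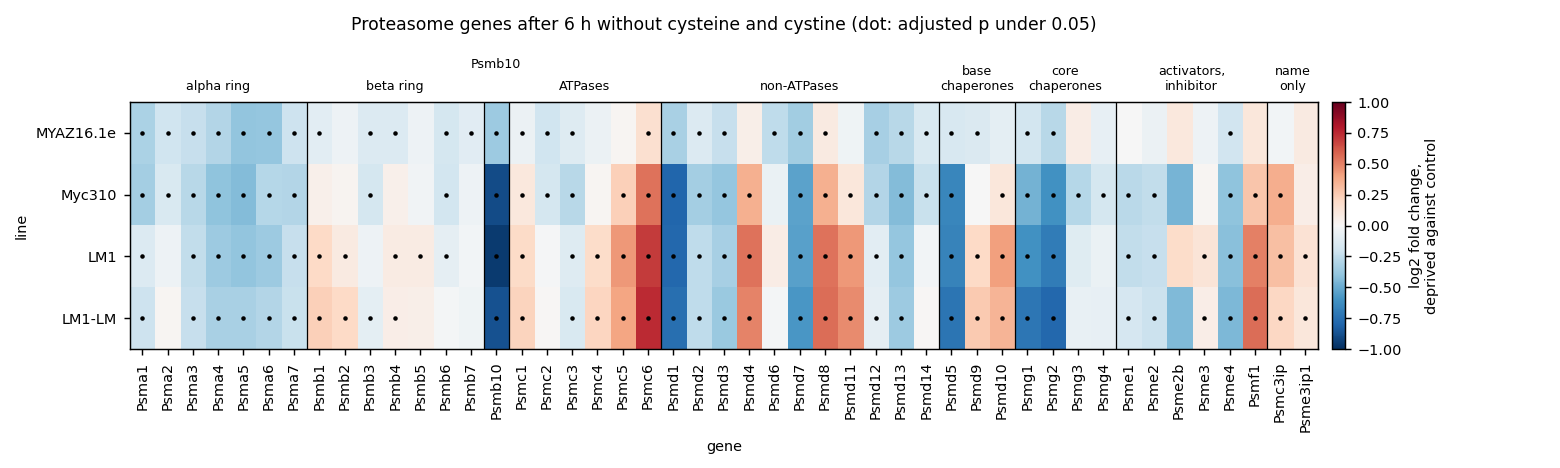
Log2 fold change of each of the 47 genes (columns, by role) in each of 4 lines (rows), deprived against control medium, with blue for lower, red for higher and a dot for adjusted p under 0.05. The alpha ring is blue in every line except Psma2 in LM1-LM, and Psmc6 and Psmd8 are red with a dot in every line.

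The alpha ring, which gates the entrance of the core particle, moved in one direction wherever it passed the test. All 7 of its genes fell in MYAZ16.1e and in Myc310, and 6 of 7 fell in LM1 and in LM1-LM, under TMM scaling. Their log2 fold changes ran from -0.39 to -0.20 in MYAZ16.1e and from -0.44 to -0.15 in Myc310. The LM1 values ran from -0.39 to -0.054, those of LM1-LM from -0.33 to 0.020. The gene that did not pass in the LM lines was Psma2, at -0.054 ± 0.029, adjusted p = 0.105 in LM1 and 0.020 ± 0.029, adjusted p = 0.542 in LM1-LM by edgeR's quasi-likelihood test. In LM1 it was called lower with RLE and upper-quartile scaling and with DESeq2, which put 7 of 7 lower there.

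Psma5, a subunit of the alpha ring, fell in all 4 lines. In MYAZ16.1e its control cultures gave 180.1, 194 and 191 CPM and its deprived cultures 145, 149 and 138 CPM. In Myc310 the values were 186, 173 and 177 against 132, 131 and 137 CPM, and in LM1 188, 188 and 195 against 136, 144 and 145 CPM. In LM1-LM they were 187, 186 and 190.2 against 146, 145 and 146 CPM. Every deprived culture was below every control culture of its line, and the log2 fold changes lay between -0.44 ± 0.033 (Myc310) and -0.33 ± 0.033 (LM1-LM). The pairwise tests of the difference in its response between lines gave edgeR adjusted p-values of 0.539 for Myc310, 1 for LM1 and 0.23 for LM1-LM, each against MYAZ16.1e. Psma6, another alpha subunit, fell from 163, 161 and 168 to 130.1, 127 and 121 CPM in MYAZ16.1e, a log2 fold change of -0.39 ± 0.033.

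The beta ring, which holds the active sites, moved little. In MYAZ16.1e 5 of its 7 genes fell and none rose, and in Myc310 2 fell and none rose. In LM1 4 rose and 1 fell, and in LM1-LM 3 rose and 1 fell. Under upper-quartile scaling these became 1 higher and 3 lower in LM1, and 2 higher and 3 lower in LM1-LM, so the direction of the ring in the LM lines depended on the scaling. Its largest increase was that of the structural subunit Psmb1, at 0.20 ± 0.027, adjusted p = 1.98e-07 in LM1 and 0.24 ± 0.027, adjusted p = 3.17e-09 in LM1-LM by edgeR's quasi-likelihood test, where MYAZ16.1e had -0.10 ± 0.026.

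Of the 3 catalytic subunits, Psmb5 (chymotrypsin-like site) was measured at 80.2, 76.8 and 77.8 CPM in control and 74.5, 75.3 and 77.4 CPM in deprived MYAZ16.1e cultures. In LM1 the values were 80.4, 81.8 and 79.1 against 83.0, 84.6 and 81.4 CPM, and the ranges overlapped in all 4 lines. Its one call, 0.081 ± 0.034, adjusted p = 0.0358 in LM1 by edgeR, was lost under 10 of 11 other settings. Psmb6 (caspase-like site) fell from 163, 170.0 and 163 to 148, 149 and 144 CPM in MYAZ16.1e, a log2 fold change of -0.17 ± 0.035. In Myc310 it fell from 114, 117 and 115 to 96.9, 104 and 107 CPM (-0.18 ± 0.037). In LM1 it was -0.090 ± 0.037, adjusted p = 0.0284 by edgeR, a call lost without replicate 1 (-0.085) or 2 (-0.068), and in LM1-LM -0.021 ± 0.036, which did not pass under TMM scaling, while upper-quartile scaling called it lower (-0.10, adjusted p = 0.0102 by edgeR).

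Psmb7 (trypsin-like site) passed the test in 1 line under TMM scaling, MYAZ16.1e, with control cultures at 340.0, 323 and 306 CPM, deprived cultures at 301, 304 and 294 CPM and -0.11 ± 0.030, adjusted p = 0.00216 by edgeR, and this call was lost without replicate 1 (-0.081, adjusted p = 0.0585). In the other lines its log2 fold change was -0.054, -0.025 and -0.040 for Myc310, LM1 and LM1-LM. Upper-quartile scaling called it lower in each of these, at -0.085, -0.10 and -0.12 (edgeR adjusted p = 0.0249, 0.00726 and 0.00145), and leaving out replicate 1 called it lower in Myc310 (-0.088, adjusted p = 0.0432). No tested difference between LM1 or LM1-LM and MYAZ16.1e in the response of Psmb7 passed the threshold, with differences of 0.089 ± 0.044 and 0.074 ± 0.044.

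The largest decrease of all members in Myc310, LM1 and LM1-LM was that of Psmb10, the immune counterpart of Psmb7. In MYAZ16.1e its cultures gave 39.9, 40.2 and 40.8 CPM in control and 30.1, 31.0 and 33.3 CPM in deprived medium. In Myc310 they gave 31.4, 33.9 and 28.4 against 17.6, 18.2 and 15.1 CPM. In LM1 they gave 28.4, 29.3 and 29.0 against 15.6, 13.9 and 14.1 CPM. Every deprived culture of these lines was below every control culture. In LM1-LM the values were 31.4, 28.8 and 30.6 against 16.4, 16.6 and 15.5 CPM, again with no overlap. The log2 fold changes were -0.36 ± 0.060, -0.90 ± 0.067, -0.96 ± 0.070 and -0.87 ± 0.068 in the order MYAZ16.1e, Myc310, LM1, LM1-LM, with edgeR adjusted p-values of 8.03e-06, 5.33e-13, 2.32e-13 and 9.55e-13. Under upper-quartile scaling the value in LM1 passed 2-fold, at -1.04. The other immune forms, which were not members, were lower still, Psmb8 at 2.09 ± 0.376 and Psmb9 at 0.590 ± 0.0279 CPM (SD, n = 3) in LM1 control cultures.

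The 6 ATPases, which form the ring that unfolds substrates, did not move as a unit. In MYAZ16.1e 3 fell and 1 rose, in Myc310 2 fell and 3 rose, and in LM1 and in LM1-LM 1 fell and 4 rose. In LM1 the ring's members ranged between -0.13 (Psmc3) and 0.70 (Psmc6), in LM1-LM between -0.16 (Psmc3) and 0.75 (Psmc6). Psmc5 rose by 0.43 ± 0.035 in LM1 and 0.39 ± 0.035 in LM1-LM and was at 0.019 ± 0.034 in MYAZ16.1e, where it did not pass.

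Psmc6 had the largest increase of any member in every line. Its cultures gave 190.5, 187 and 191 CPM in control and 214, 215 and 209.8 CPM in deprived MYAZ16.1e. In Myc310 they gave 141, 138 and 141 against 206, 208 and 202 CPM. In LM1 they gave 155, 152 and 154 against 244, 240.0 and 246 CPM. The control cultures of MYAZ16.1e lay above those of Myc310 and LM1. In LM1-LM the values were 159, 152 and 149 against 256, 251 and 246 CPM. Control and deprived cultures were separate in all 4 lines, with log2 fold changes of 0.16 ± 0.024, 0.54 ± 0.025, 0.70 ± 0.025 and 0.75 ± 0.024 in the order listed and edgeR adjusted p-values of 1.18e-06, 4.20e-18, 3.25e-21 and 4.13e-22.

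The non-ATPase subunits of the regulatory particle split into genes that rose and genes that fell. In MYAZ16.1e 8 of 11 fell and 1 rose, in Myc310 7 fell and 3 rose, and in LM1 and LM1-LM 6 fell and 3 rose. The genes that rose in the LM lines were Psmd4 and Psmd8, a ubiquitin receptor and a lid subunit, and the lid subunit Psmd11. Psmd1 and Psmd2, the large scaffolds of the base, and the lid genes Psmd3, Psmd7, Psmd12 and Psmd13 were those that fell.

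Psmd1 had the next largest decrease after Psmb10 in Myc310 and LM1. Its levels were 297, 296 and 302 CPM in control and 248, 239.8 and 232 CPM in deprived MYAZ16.1e cultures. In Myc310 they were 289, 285 and 276 against 161, 166 and 169 CPM, and in LM1 312, 318 and 309.8 against 172, 182 and 178 CPM. In LM1-LM they were 316, 327 and 317 against 183, 185 and 186 CPM. All deprived cultures lay below all controls of their line, and the log2 fold change was -0.32 ± 0.027 in MYAZ16.1e but -0.79 ± 0.028, -0.79 ± 0.027 and -0.76 ± 0.027 in Myc310, LM1 and LM1-LM. Psmd7 fell in the same lines by 0.35, 0.54, 0.54 and 0.59 on the log2 scale.

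Psmd8 gave 159.5, 165 and 161 CPM in control and 227, 230.0 and 233 CPM in deprived LM1 cultures. In Myc310 the values were 134, 135 and 135 against 172, 172 and 177 CPM, and in LM1-LM 168, 169 and 169 against 242, 249 and 237 CPM. In MYAZ16.1e they were 136, 133 and 147 against 153, 152 and 141 CPM. The groups overlapped in MYAZ16.1e only, where the change was 0.089 ± 0.033, adjusted p = 0.0225 by edgeR, a call lost without replicate 1 (0.047, adjusted p = 0.402), without replicate 2 (0.042, adjusted p = 0.46) or with no filter on low counts (0.079, adjusted p = 0.0544). In Myc310, LM1 and LM1-LM it was 0.35 ± 0.032, 0.54 ± 0.032 and 0.56 ± 0.031.

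Psmd4, the ubiquitin receptor, gave 129.6, 137 and 126 CPM in control and 167, 173 and 167 CPM in deprived Myc310 cultures. In LM1 the values were 137, 142 and 136 against 193, 198 and 199 CPM, log2 fold changes of 0.36 ± 0.029 and 0.54 ± 0.029. In MYAZ16.1e it stood at 0.061 ± 0.028, adjusted p = 0.0732 by edgeR, which did not pass. Psmd14, which removes ubiquitin chains from substrates, fell from 232, 218 and 234 to 203, 204 and 209 CPM in MYAZ16.1e (-0.16 ± 0.027). It fell from 141, 143 and 141 to 122, 124 and 121 CPM in Myc310 (-0.23 ± 0.028). In LM1 it was measured at 138, 141 and 138 against 133, 133 and 134 CPM, in LM1-LM at 143, 143 and 141 against 143, 141 and 135 CPM. Neither of the last passed under TMM scaling, while upper-quartile scaling called both lower, at -0.10 and -0.073.

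Among the chaperones, Psmg1 and Psmg2, partners that nucleate the alpha ring, fell in all 4 lines, while Psmg3 and Psmg4, which act as the other pair, passed, as lower, in Myc310 only. The call of Psmg4 was lost under 7 of 11 other settings, among them RLE scaling and DESeq2. Psmg2 gave 56.1, 52.7 and 54.2 CPM in control and 44.8, 45.7 and 44.5 CPM in deprived MYAZ16.1e cultures. In Myc310 it gave 56.8, 53.4 and 51.3 against 36.5, 36.0 and 34.8 CPM. In LM1 it gave 57.9, 56.4 and 58.0 against 34.4, 35.4 and 33.5 CPM. The deprived cultures of MYAZ16.1e lay above those of Myc310 and LM1. In LM1-LM the values were 57.7, 56.6 and 60.0 against 34.2, 33.1 and 30.8 CPM, so that the log2 fold changes went from -0.28 ± 0.043 in MYAZ16.1e over -0.60 ± 0.044 in Myc310 to -0.70 ± 0.045 in LM1 and -0.79 ± 0.044 in LM1-LM. Psmg1 changed by -0.19, -0.47, -0.61 and -0.72 in the same order.

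The 3 chaperones of the base differed from each other. Psmd5 fell in all 4 lines, in Myc310 from 117, 119 and 116 to 76.2, 72.5 and 77.8 CPM (-0.65 ± 0.032) and in MYAZ16.1e from 158, 155 and 156 to 140.3, 141 and 140.2 CPM (-0.16 ± 0.030). Psmd10, known as gankyrin, rose in Myc310, LM1 and LM1-LM by 0.11, 0.41 and 0.34, and in MYAZ16.1e stood at -0.10 ± 0.048, which did not pass. Its Myc310 call was lost under upper-quartile scaling, with no filter on low counts and without replicate 1 or 2. Psmd9 fell in MYAZ16.1e (-0.15 ± 0.056) and rose in LM1 (0.20 ± 0.054) and LM1-LM (0.26 ± 0.053), although its control and deprived cultures overlapped in MYAZ16.1e, Myc310 and LM1. The LM1 call of Psmd9 was lost without replicate 3.

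The activators, which open the gate of the core particle, and the inhibitor moved in both directions. Psme4 (PA200) fell in all 4 lines, by 0.19 in MYAZ16.1e and by 0.45 in LM1-LM on the log2 scale. Psme1 and Psme2, the interferon-inducible PA28 alpha and beta subunits, fell in Myc310, LM1 and LM1-LM, with values from -0.27 (Psme1 in Myc310) to -0.17 (Psme1 in LM1-LM). They were at -0.0021 and -0.059 in MYAZ16.1e and did not pass there. Psme3 (PA28 gamma) rose by 0.13 in LM1 and 0.066 in LM1-LM. The LM1 call of Psme3 was lost under upper-quartile scaling, and the LM1-LM call under 8 of 11 other settings, among them RLE and upper-quartile scaling and DESeq2. Psmf1, the inhibitor, rose in LM1-LM from 33.8, 32.9 and 34.0 to 43.6, 50.4 and 50.7 CPM (0.56 ± 0.053, adjusted p = 7.53e-11 by edgeR). In LM1 it rose by 0.50 ± 0.053 and in Myc310 by 0.27 ± 0.053, and MYAZ16.1e gave 0.11 ± 0.048, adjusted p = 0.0503.

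The name-only match Psmc3ip, a meiotic recombination factor at low level, gave 12.7, 9.50 and 11.1 CPM in control and 14.5, 13.3 and 15.4 CPM in deprived Myc310 cultures (0.36 ± 0.089, adjusted p = 6.95e-04 by edgeR). It and Psme3ip1 rose in LM1 and LM1-LM, calls lost in LM1 without replicate 3 for both and, for Psme3ip1, also without replicate 2 and under upper-quartile scaling. In LM1-LM they were lost under 7 (Psmc3ip) and 9 (Psme3ip1) of 11 other settings. Psme2b, the low-count copy, had log2 fold changes of 0.11, -0.47, 0.18 and -0.44 with standard errors of 0.27 to 0.30, so that changes of this size were not detectable at its counts.

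**Figure D2:**
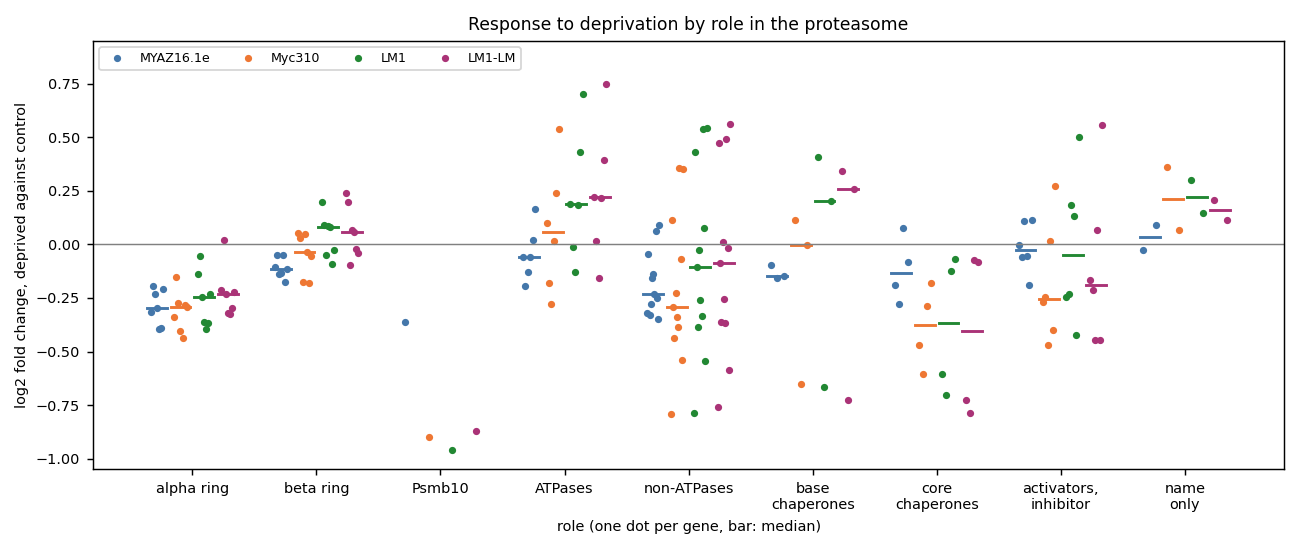
Log2 fold change (vertical axis) of each gene, deprived against control medium, by role (horizontal axis) and line (colour), with a bar at the median of each role and line. The alpha ring medians lie between -0.30 and -0.23, and the ATPase medians run from -0.060 in MYAZ16.1e to 0.22 in LM1-LM.

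**Figure D3:**
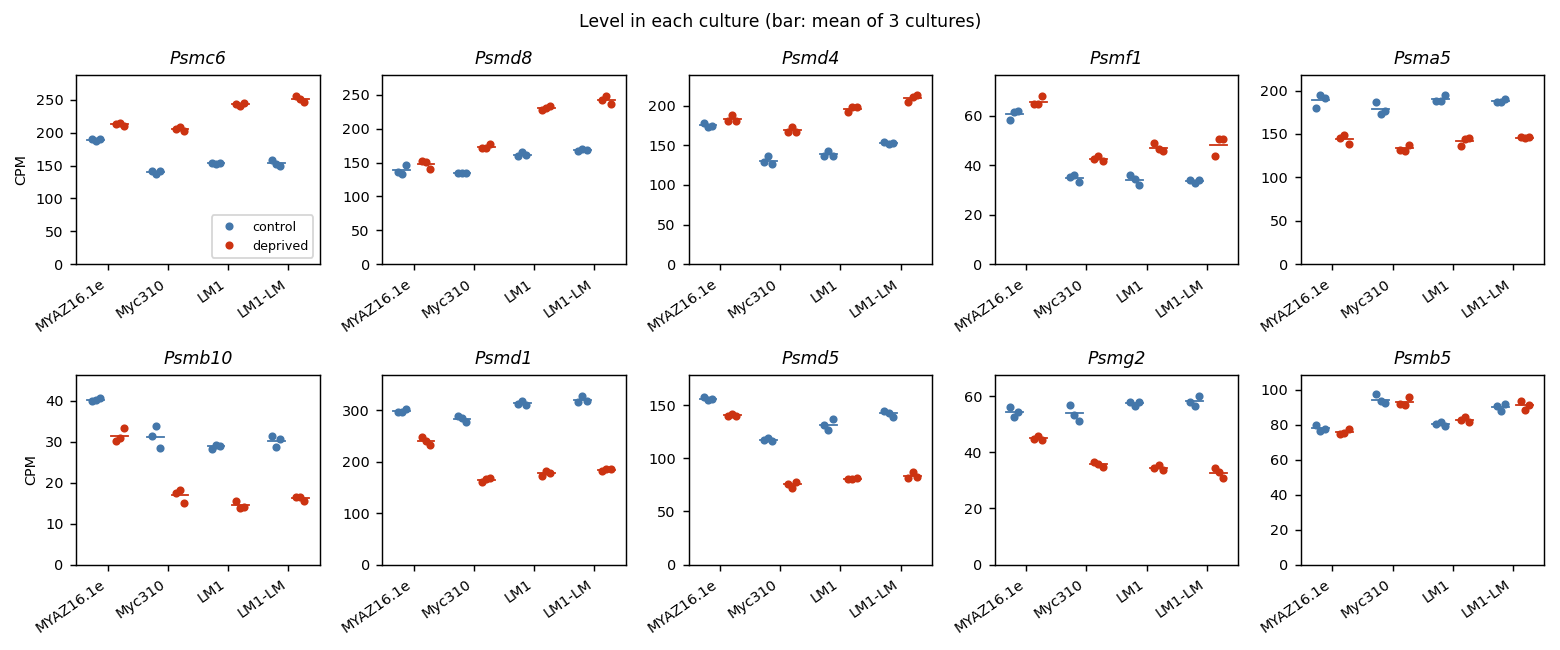
CPM of 10 members in each control (blue) and deprived (red) culture of 4 lines, with bars at the mean of 3 cultures and axes from 0. Psmc6 in LM1 goes from a mean of 154 to 243 CPM and Psmb10 from 28.9 to 14.5 CPM, while Psmb5 overlaps in every line.

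The response of the members differed between MYAZ16.1e and the lines of the Myc310 descent. No other MYAZ line was deprived, so metastatic potential cannot be told apart from other differences between MYAZ16.1e and this descent. The difference was tested as a contrast of contrasts in the same edgeR fit, and the comparisons share the MYAZ16.1e libraries. Between Myc310 and MYAZ16.1e, 11 members had a more positive and 15 a more negative response in Myc310, beside 19.8% and 20.4% of all genes. For LM1 the numbers were 22 and 11, beside 26.9% and 25.3%, and for LM1-LM 20 and 11, beside 28.4% and 26.4%. Of the calls, 66.7% were more positive in LM1 and 64.5% in LM1-LM under TMM scaling, and 50% in each under upper-quartile scaling. Over all genes the same shares were 51.5% and 51.7% under TMM and 41.0% and 41.6% under upper-quartile scaling. Psmc6 differed by 0.54 ± 0.035 in LM1 and Psmd5 by -0.51 ± 0.043, in opposite directions. Of the 7 alpha ring genes, 1 differed in Myc310 (lower), 2 in LM1 and 1 in LM1-LM (higher). The Myc310 call, of Psma4, was lost under 6 of 10 other settings, and both LM1 calls, of Psma1 and Psma2, under upper-quartile scaling and without replicate 3. By contrast, 5 of 6 ATPases had a more positive response in LM1 and in LM1-LM.

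Among the lines of the same descent, LM1 had a more positive response than Myc310 in 16 members and a more negative one in 0, beside 14.5% and 9.96% of all genes. Of all genes called, 59.3% were more positive under TMM and 42.7% under upper-quartile scaling, and of the members 90.9% under the latter. The count fell to 8 without replicate 2 and to 9 without replicate 3, all more positive. The lid subunit Psmd11 had the largest of these differences, with 164, 164 and 165 CPM in control and 176, 180.3 and 184 CPM in deprived Myc310 cultures and 178, 176 and 176 against 227, 234 and 236 CPM in LM1. The difference was 0.31 ± 0.037, adjusted p = 1.38e-07 by edgeR's quasi-likelihood test. Between LM1-LM and LM1, no member passed by edgeR (0.769% of all genes in either direction), 1 had an unadjusted p under 0.05 and DESeq2 called 0. The standard errors of these differences had a median of 0.046 on the log2 scale.

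Genes that act on the proteasome but are not members were tested in the same fit. Of 12 regulators of proteasome genes, 10 rose and 2 fell in MYAZ16.1e, 9 rose and 2 fell in Myc310 and in LM1-LM, and 9 rose and 3 fell in LM1. The shares of all genes that rose and fell, against which these and the next 2 lists are read, were 26.6% and 27.1% in MYAZ16.1e, 32.8% and 33.9% in Myc310, 35.8% and 35.3% in LM1, and 36.5% and 35.9% in LM1-LM. Nfe2l1, which encodes NRF1, gave 217, 217 and 206 CPM in control and 438, 433 and 432 CPM in deprived MYAZ16.1e cultures. In LM1 it gave 197, 201 and 205 against 394, 385 and 399 CPM. Its log2 fold changes were 1.02 ± 0.023, 0.96 ± 0.023, 1.00 ± 0.023 and 0.92 ± 0.023 in the order MYAZ16.1e, Myc310, LM1, LM1-LM, larger than that of any member in either direction in MYAZ16.1e. Ngly1, whose enzyme deglycosylates NRF1, rose by 0.70, 0.64, 0.73 and 0.72, whereas Ddi2, the protease that cleaves it, had 0.10, -0.012, -0.10 and -0.046. Nfe2l2 (NRF2) rose by 0.37 in MYAZ16.1e and 0.95 in LM1-LM, and its small MAF partner Maff by 0.29 and 1.44.

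Of 17 proteasome partners in the table, 5 rose and 5 fell in MYAZ16.1e, 8 rose and 5 fell in Myc310, 11 rose and 3 fell in LM1, and 11 rose and 4 fell in LM1-LM. Pomp, the maturation factor of the core particle, fell in all 4 lines, from 110.4, 105 and 112 to 78.1, 80.9 and 76.2 CPM in MYAZ16.1e (-0.49 ± 0.036) and by 0.66 on the log2 scale in LM1. Zfand2a, an arsenite-inducible proteasome adaptor, rose by 0.64, 1.57, 1.68 and 1.85, and Akirin2, which brings the proteasome into the nucleus, by 0.29, 0.84, 1.06 and 1.17. The shuttle factor Ubqln4 fell in all 4 lines (-0.34 to -0.92). Of 6 ubiquitin supply genes, 2 rose and 2 fell in MYAZ16.1e and in Myc310, 3 rose and 1 fell in LM1, and 4 rose and 1 fell in LM1-LM.

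**Figure D4:**
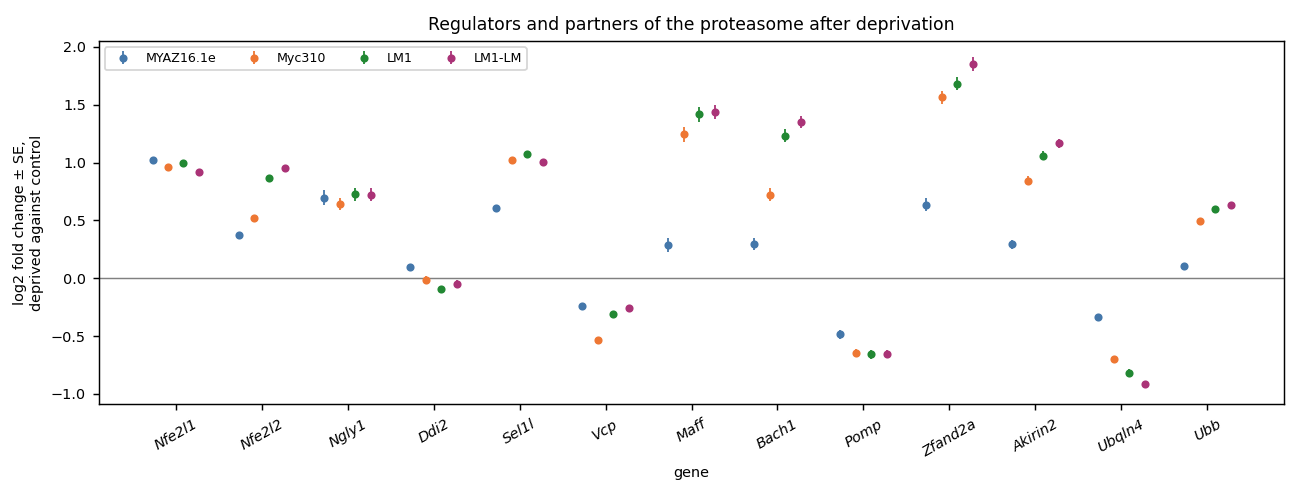
Log2 fold change ± SE (vertical axis), deprived against control medium, of 13 genes outside the member list in 4 lines (colours). Nfe2l1 lies between 0.92 and 1.02, Pomp and Ubqln4 lie below 0, and Zfand2a reaches 1.85 in LM1-LM.

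In control medium the share of members called in either direction against MYAZ was no higher in LM and LM-LM than that of all genes. More of the calls were lower than higher, but this turned for LM (9 higher, 8 lower) and LM-LM (11 higher, 7 lower) without the line MYAZ16.1e, and over all 47 members the median log2 difference was 0.027 in LM and 0.064 in LM-LM, with 27 of 47 above 0 in each. The shares of all genes in the fit without MYAZ16.1e are not given here. Counts were summed per line, so that the line is the replicate, and tested with edgeR's quasi-likelihood test over 16017 genes. The LM lines all stem from Myc310, and LM1-LM stems from LM1, so the spread between them does not measure that between separate tumours. A difference from MYAZ that recurs in these subtypes therefore cannot be told apart from a single difference of the Myc310 descent. In Myc310, a single line assumed to vary as the other subtypes do, 1 member was higher and 4 were lower than in MYAZ, beside 4.72% and 4.2% of all genes. In LM 2 were higher and 8 lower (11.3% and 12.4% of all genes), and in LM-LM 3 were higher and 7 lower (12.8% and 13.6%). Between LM-LM and LM, edgeR called 0 members and 0% of all genes, with 0 members at an unadjusted p under 0.05 and 0 called by DESeq2. The 3 comparisons with MYAZ share the MYAZ lines. With each library entered on its own, 23, 26 and 29 members passed for Myc310, LM and LM-LM, beside 50.9%, 60.8% and 62.8% of all genes, but the cultures of a line are then counted as separate replicates. In that count LM-LM had 15 members higher and 14 lower.

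Psmc3, Psmd14 and Psmf1 had the largest decreases among the members that passed in each comparison with MYAZ. For the ATPase Psmc3 the line means were 356, 366 and 379 CPM in MYAZ12.3i, MYAZ16.1e and MYAZ6.6g. The other means were 231 CPM in Myc310, 242 (LM1), 234 (LM2) and 227 (LM3) CPM in LM, and 255 (LM1-LM), 244 (LM2-LM) and 233 (LM3-LM) CPM in LM-LM. Every MYAZ line was thus above every other line, and the log2 differences from MYAZ were -0.65 ± 0.088, -0.62 ± 0.060 and -0.58 ± 0.060 for Myc310, LM and LM-LM, with edgeR adjusted p-values of 0.00488, 4.06e-04 and 5.09e-04.

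For the deubiquitinase Psmd14 the line means were 214, 228 and 212 CPM in MYAZ12.3i, MYAZ16.1e and MYAZ6.6g. The other lines gave 142 CPM in Myc310, 139 (LM1), 149 (LM2) and 134 (LM3) CPM in LM, and 142 (LM1-LM), 148 (LM2-LM) and 145 (LM3-LM) CPM in LM-LM. The groups did not overlap here either, with log2 differences of -0.60, -0.61 and -0.58. The inhibitor Psmf1 stood at 50.1, 60.5 and 54.1 CPM in MYAZ12.3i, MYAZ16.1e and MYAZ6.6g, and at 34.8 CPM in Myc310, 34.1 (LM1), 35.2 (LM2) and 30.9 (LM3) CPM in LM, and 33.6 (LM1-LM), 29.3 (LM2-LM) and 34.0 (LM3-LM) CPM in LM-LM. Its log2 differences were -0.64 ± 0.16, adjusted p = 0.0405 for Myc310, -0.70 ± 0.11, adjusted p = 0.00272 for LM and -0.76 ± 0.11, adjusted p = 0.00181 for LM-LM by edgeR, and the first was lost under 6 of 19 other settings, among them without MYAZ6.6g (-0.65, adjusted p = 0.0766).

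The increases that passed were those of the core chaperone Psmg3, the alpha subunit Psma2 and the base chaperone Psmd9. Psmd10 had the largest difference of all members in Myc310, at 0.75, but did not pass. It stood at 41.2 CPM there, and its MYAZ line means ran from 15.8 to 36.9 CPM. Psmg3 line means were 22.6, 23.4 and 20.3 CPM in MYAZ12.3i, MYAZ16.1e and MYAZ6.6g, and 32.7 CPM in Myc310, 32.0 (LM1), 30.5 (LM2) and 31.1 (LM3) CPM in LM, and 32.3 (LM1-LM), 35.9 (LM2-LM) and 30.1 (LM3-LM) CPM in LM-LM. All MYAZ lines lay below all others, with log2 differences of 0.58 ± 0.13, adjusted p = 0.0298 in Myc310, 0.52 ± 0.095, adjusted p = 0.0061 in LM and 0.57 ± 0.095, adjusted p = 0.00365 in LM-LM by edgeR. The Myc310 call was lost under 7 of 19 other settings. Psma2 was higher in LM by 0.31 ± 0.091, adjusted p = 0.0412 and in LM-LM by 0.36 ± 0.091, adjusted p = 0.0199, calls lost under 13 and 3 of 19 other settings, with line means of 133, 150.5 and 172 CPM in MYAZ12.3i, MYAZ16.1e and MYAZ6.6g, and 180.5 CPM in Myc310, 192 (LM1), 183 (LM2) and 180.0 (LM3) CPM in LM, and 197 (LM1-LM), 199 (LM2-LM) and 188 (LM3-LM) CPM in LM-LM. Psmd9 passed in LM-LM (0.39 ± 0.10, adjusted p = 0.023) and lost its call under 4 of 19 settings.

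Psmc6, which rose most under deprivation, was lower than in MYAZ in control medium, at -0.39 ± 0.081, -0.29 ± 0.056 and -0.26 ± 0.056 in Myc310, LM and LM-LM. Psma7, Psmb1 and Psmc2 were lower in LM and in LM-LM, at -0.48, -0.33 and -0.31 in LM. In LM the call of Psmc2 was lost without LM1, LM2, LM3 or LM1-LM and that of Psmb1 without LM1 or LM3. In LM-LM the call of Psmb1 was lost without any 1 of its 3 lines and those of Psmc2 and Psmc6 without LM1-LM. The Myc310 call of Psmc6 was lost with no filter on low counts and without MYAZ6.6g or LM1-LM. Line means of LM and of MYAZ did not overlap for these 3 genes, but an exact permutation test of 3 line means against 3 cannot give a two-sided p under 0.1, and each gave 0.1. Without MYAZ16.1e, the line with the highest summed level of members, 11, 17 and 18 members passed for Myc310, LM and LM-LM, of which 5, 9 and 11 were higher. Without LM1-LM, 2 and 5 passed for Myc310 and LM-LM. The count for Myc310 was 2 without MYAZ6.6g and 3 without LM2 or LM3, and the count for LM was 6 without LM1 or LM3. Shares of all genes are not given for these fits without single lines. Whether the member counts moved more than those of all genes is therefore not shown.

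**Figure D5:**
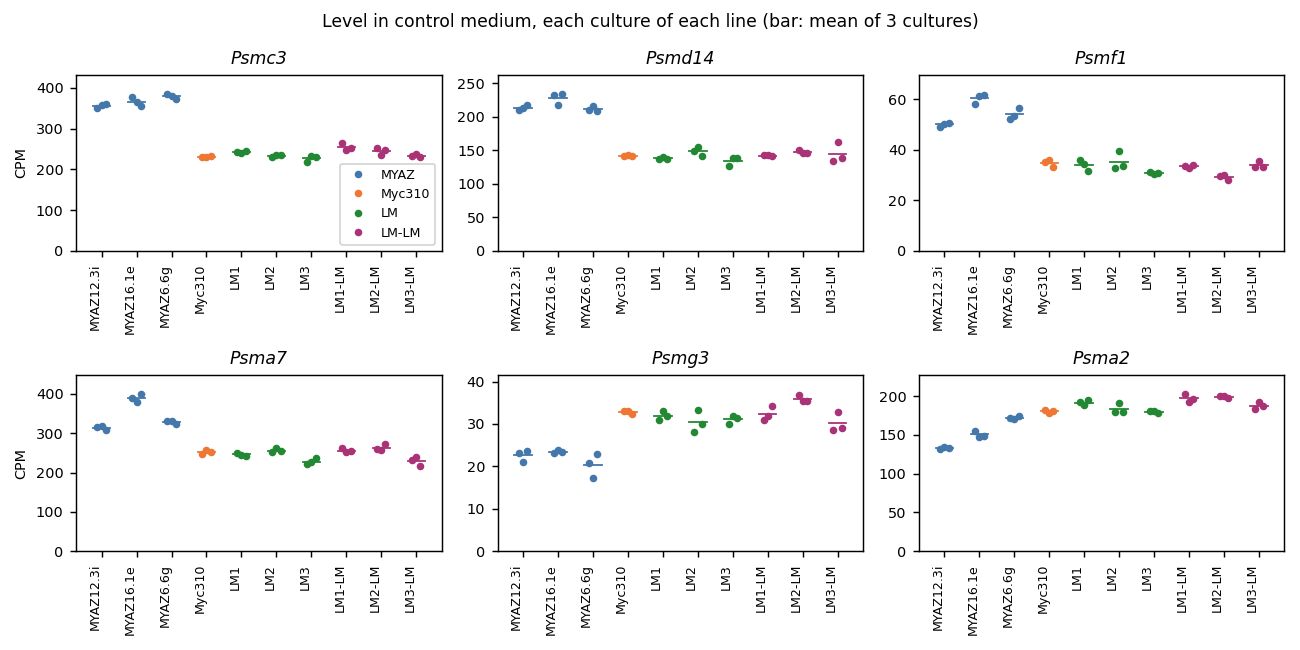
CPM of 6 members in each control culture of 10 lines (dots, coloured by subtype, with bars at line means and axes from 0). Psmc3 line means are 356 to 379 CPM in MYAZ and 227 to 255 CPM in the 7 other lines, and Psmg3 line means are 20.3 to 23.4 CPM in MYAZ and 30.1 to 35.9 CPM in those 7.

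In the NDI1 line, 11 members were higher and 2 lower than in its parent MYAZ12.3i, beside 8.14% and 9.27% of 12841 genes, a line against a line with 3 cultures each. The base chaperone Psmd10 gave 15.9, 15.8 and 15.8 CPM in the parent and 20.6, 19.1 and 21.7 CPM in the NDI1 line, a log2 difference of 0.37 ± 0.069, adjusted p = 0.00209 by edgeR. Psmb10 gave 25.5, 25.8 and 25.3 against 33.7, 31.8 and 32.8 CPM, at 0.35 ± 0.052, adjusted p = 3.75e-04. Psmd9 gave 29.4, 27.7 and 29.4 against 36.5, 34.8 and 33.5 CPM, at 0.27 ± 0.054, adjusted p = 0.00324. The NDI1 line was thus higher in 2 of the 3 base chaperones. Psmd8 was lower, with 180.3, 181 and 179 CPM in the parent and 164, 160.3 and 166 CPM in the NDI1 line (-0.14 ± 0.028, adjusted p = 0.00275). Psmc1 gave 254, 242 and 252 against 239, 233 and 235 CPM (-0.085 ± 0.028, adjusted p = 0.0468), a call lost under 5 of 10 other settings. DESeq2 called 11 members, and the count of 13 by edgeR fell to 6 without replicate 1 and to 8 without replicate 2. While Psmb10 was higher in the NDI1 line, the log2 differences of Psmb8 (-0.45) and Psmb9 (-0.76) were negative. Both genes were low in LM1 control cultures, and their tests for NDI1 are not given here. Of 17 proteasome partners none passed by edgeR.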

How the data were processed

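RNA sequencing was performed on poly(A) RNA (directional libraries) from 45 cultures in 15 groups of 3. The values are estimated counts per gene that the authors made with STAR and RSEM on GRCm38 and deposited as whole numbers; the annotation release and whether counting used strand are not given in the sources used here, and their notes also name R 4.2.2 and DESeq2 1.38.3. Groups followed the labels. Here, counts were scaled by TMM (CPM over all 45 libraries) and tested with edgeR 4.0.16 (R 4.3.3), quasi-likelihood, with Benjamini-Hochberg adjustment over all genes tested at 0.05: 24 libraries for deprivation and its differences between lines, counts summed per line for subtypes, and 6 libraries for NDI1. Scripts were tested on simulated data. Alternatives were RLE and upper-quartile scaling, other filters, DESeq2 1.42.0, limma 3.58.1, a replicate block, and leaving out replicates or lines. Depth per library, 19517859 to 29019988 counts, limits precision for low genes.

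The members and gene lists were chosen with earlier results of these data known. Per-culture values are given for the 3 largest increases and decreases past the threshold, or fewer where fewer passed, in each deprivation response and for NDI1. They are also given for Psmb10 and Psmd14 and, in some lines only, for the catalytic subunits. The largest subtype changes have line means, except Psmd9, and some of the largest differences between lines have log2 values only. Other genes named were chosen after their values were seen. Of the names listed, Psma8 and the partners Shfm1, AI314180 and Paaf1 were not analysed here.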

Additional observations from a re-analysis of the deposited data

Results flagged for a closer look

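All results listed here were picked out because the deprivation response differed between lines in edgeR's test of the difference itself, and the first 3 comparisons share the MYAZ16.1e libraries. Values are differences in log2 fold change.

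Myc310 differed from MYAZ16.1e in 26 members. Psmc3ip (0.3869), Psmc6 (0.3767) and Psmd4 (0.2955) had the more positive response in Myc310, and Psmb10 (-0.5359), Psmd5 (-0.4941) and Psmd1 (-0.4699) the more negative one. The call of Psmc3ip was lost without replicate 2 or 3.

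LM1 differed from MYAZ16.1e in 33 members. Psmc6 (0.5367), Psmd10 (0.5058) and Psmd4 (0.4784) were more positive in LM1, and Psmb10 (-0.5971), Psmd5 (-0.5091) and Psmd1 (-0.4649) more negative. LM1-LM differed from MYAZ16.1e in 31 members, with Psmc6 (0.5846), Psmd11 (0.5195) and Psmd8 (0.4729) more positive and Psmd5 (-0.5709), Psmg1 (-0.5364) and Psmg2 (-0.5112) more negative.

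LM1 differed from Myc310 in 16 members, led by Psmd11 (0.3144), Psmd10 (0.2947) and Psmf1 (0.2265). The calls of Psmd10 and Psmf1 were lost without replicate 2 or 3, and that of Psmf1 also under upper-quartile scaling (0.18).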

How the results depend on the processing

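Of the recomputed counts of members past the threshold, over all comparisons and settings, 158 lay within 1.5 times the reported count and 22 did not. For deprivation they stayed within 27 to 32 in MYAZ16.1e, 34 to 37 in Myc310, 34 to 39 in LM1 and 32 to 39 in LM1-LM. Under upper-quartile scaling, Psmd14 in LM1-LM turned from 0.0098 (not called) to -0.073 (called lower). The difference between LM1 and Myc310 (16) gave 8 to 15 members without single replicates. Myc310 against MYAZ (5) gave 2 with no filter, 11 with DESeq2, 23 with each library on its own, 13 with limma voom and the line as a block, and 2 to 11 without single lines. LM against MYAZ (10) gave 26 by library, 17 with voom and 6 to 17 without single lines, and LM-LM against MYAZ (10) gave 29, 17 and 5 to 18. NDI1 (13) gave 6 to 14 without single replicates. The cause of these shifts was not tested. For the fits without single lines or replicates it is also not shown whether the counts of all genes shifted alike. Same-numbered cultures did not deviate together (15 pairs of cultures, correlations from -0.059 to 0.041), so the numbers do not pair the cultures. With the replicate block, 31, 36, 38 and 37 members were called for deprivation in the order of the lines above, 26, 33, 31, 15 and 0 for the differences between lines, and 13 for NDI1. The low counts of Psme2b limit what could be seen for it, and 1 Myc310 line cannot show the spread of its subtype.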
